A study of Mus musculus with 12 samples.

Results

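The description covers 4 RNA-seq libraries of the mouse fibroblast line L929: G3-YSD 1 and HSV 1, called the strong pair, against HT-DNA 2 and cGAMP 2, called the reference pair. They are 4 of 12 samples in the series, which holds 2 libraries under each of 6 labels: HSV, G3-YSD, cGAMP, hpRNA, HT-DNA and mock, the last without treatment. RNA was prepared 6 hours after transfection of G3-YSD, HSV or HT-DNA, or after cGAMP stimulation. The names are given as the labels write them, and the 1 after HSV may name a replicate or a virus type. All 4 libraries were of polyA-selected RNA from the same cell line. Transfections were made in duplicate, and nothing says whether these were separate cultures. Each p-value printed below comes from a fit that grouped G3-YSD 2 with HSV 2 and HT-DNA 1 with cGAMP 1. It measures only the spread between 2 libraries of different labels, not between replicates of a treatment. Calls over all 12 libraries use the spread between the 2 libraries of each label. In bulk RNA, fewer responding cells and less RNA per cell cannot be told apart.

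The 4 libraries were chosen by their level of interferon-stimulated genes, so differences between the pairs are given as values with no test. Summed over 145 such genes, the level was 24834 CPM (counts relative to the library's TMM-scaled total) in HT-DNA 2 and 25926 in cGAMP 2. It was 56864 in G3-YSD 1 and 56845 in HSV 1. The rule sets no numerical threshold, and the next library below the reference pair, mock 2, stood at 18000. The other library of each label was far lower: 5780 in G3-YSD 2, 5655 in HSV 2, 9231 in HT-DNA 1 and 9869 in cGAMP 1. Libraries thus went against their labels: G3-YSD 1 and HSV 1 differed at least 2-fold at 35 genes, whereas G3-YSD 1 and G3-YSD 2 did so at 4930. HT-DNA 2 and cGAMP 2 differed so at 48 genes. The pairs are named by library throughout, and no label is read as the cause of a difference.

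Cytosolic DNA is sensed by cGAS, which makes the second messenger cGAMP. cGAMP binds STING, and STING activates the kinase TBK1, the transcription factor IRF3 and, in parallel, NF-kB. IRF3 and NF-kB switch on the interferon beta gene, and secreted interferon then induces a large set of genes through its receptor. NF-kB has its own targets, among them its inhibitors, which turn the signal down again. Immediate-early genes such as Fos and Egr1 answer growth factor and stress kinases within minutes and need no new protein.

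Per library 12650790 to 18912400 counts fell on genes, and 16840 genes passed a filter on low counts. Between 21635 and 22550 genes were detected with at least 1 count in the 8 libraries outside the G3-YSD and HSV labels. The number was 26496 in G3-YSD 1 and 26241 in HSV 1. Of 12 fibroblast markers, 9 passed the filter. Vim, an intermediate filament of mesenchymal cells, stood at 1822 to 2397 CPM in the 4 libraries, and Dcn and Lum, matrix proteoglycans, had 0 counts in all 4. Of 31 markers of other cell types, 22 were under 1 CPM in all 4 libraries, and Snap25 and Nanog were among those with 0 counts. The markers of other types summed to 108 to 112 CPM in the reference pair and 112 to 120.1 CPM in the strong pair. Of the 4 that reached 5 CPM in any of the 4 libraries (Des, Kdr, Lyz2 and Cd68), Kdr, an endothelial receptor, was at least 2-fold apart between the pairs, at 0.307 and 0.519 CPM against 10.5 and 8.15.

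A gene was counted as higher where the lower of G3-YSD 1 and HSV 1 was at least 2 times the higher of HT-DNA 2 and cGAMP 2, on CPM plus 0.5. A gene could pass the filter through the strong pair alone. By this rule 2006 of the 16840 genes were higher (11.9%) and 399 were lower (2.37%), with a median log2 difference over all genes of 0.04. Only 80 of the 2006 were in the interferon-stimulated list, where 80 of 144 genes compared were higher and 0 lower, with a median log2 difference of 1.26. A further 78 followed interferon in libraries outside the rule, at least 2-fold higher in mock 2 and hpRNA 2 than in mock 1 and hpRNA 1. The other 1848 genes (92.1%) met neither criterion, and beyond interferon means only this here. None of the 399 lower genes met either, but both criteria look for induced genes. Of the 144 list genes 111 met the second criterion, so it misses some interferon-stimulated genes. It rests on 18000 CPM of such genes in mock 2 and 16689 in hpRNA 2. Genes under 1 CPM could hardly meet it on CPM plus 0.5. A link of the 1848 genes to interferon was not tested. Of the 1848, 1218 were protein-coding, 833 reached a mean of 5 CPM in the strong pair, and 1152 had a mean under 1 CPM in the reference pair. With at least 1 CPM required in the reference pair, 696 remained, a limit chosen after seeing the data.

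**Figure D1:**
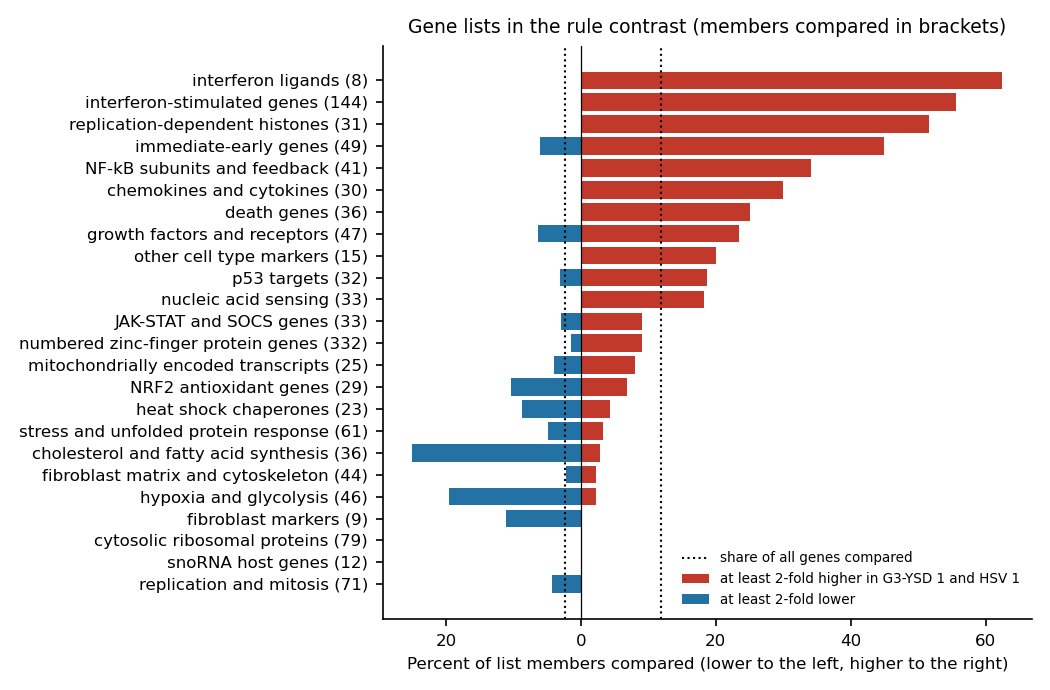
Percent of the members of each gene list (number compared in brackets) that were at least 2-fold higher (right, red) or lower (left, blue) in G3-YSD 1 and HSV 1 than in HT-DNA 2 and cGAMP 2. The dotted lines mark the shares of all genes compared, 11.9% higher and 2.37% lower. Histones, immediate-early and NF-kB genes stand to the right of the dotted line, cholesterol and hypoxia genes to the left. Some members passed the low-count filter through G3-YSD 1 and HSV 1 alone, which raises the shares higher.

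The NF-kB group was among those most often higher beyond interferon. Of 47 subunits, inhibitors and feedback genes, 41 passed the filter. Of these 14 were higher (34.1%, against 11.9% of all genes) and 0 lower. Their median log2 difference was 0.78, against 0.04 for all genes. None of the 14 was 2-fold higher in mock 2 and hpRNA 2 than in mock 1 and hpRNA 1, though some came near it. Tnfaip3 stood at 9.04 and 9.41 CPM in mock 1 and hpRNA 1 and 21.8 and 18.5 in mock 2 and hpRNA 2, and Relb at 16.2 and 18.2 against 25.7 and 27.4. Short stretches of the promoters of 3 of them and of Il6 show the kB motif, where NF-kB dimers bind. The motif was searched as GGGNNNTTCC, or GGAANNNCCC when read on the other strand. Each stretch is the 110 bases just before the transcription start in the RefSeq promoters of build GRCm38.p6, with the motif in capitals.
Nfkbia chr12:55492648-55492757 (minus strand): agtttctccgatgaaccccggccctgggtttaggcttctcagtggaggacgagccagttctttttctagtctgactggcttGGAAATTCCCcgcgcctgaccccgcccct
Tnfaip3 chr10:19015411-19015520 (minus strand): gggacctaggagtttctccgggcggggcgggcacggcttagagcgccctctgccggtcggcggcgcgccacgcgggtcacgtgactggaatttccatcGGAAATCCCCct
Nfkbie chr17:45555590-45555699 (plus strand): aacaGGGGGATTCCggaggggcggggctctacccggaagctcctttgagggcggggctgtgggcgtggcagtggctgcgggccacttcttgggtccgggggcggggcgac
Il6 chr5:30013004-30013113 (plus strand): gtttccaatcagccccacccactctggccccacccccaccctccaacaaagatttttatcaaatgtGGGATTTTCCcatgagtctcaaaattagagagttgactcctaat

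Counted back from the start, with -1 as the last base before it, the motif began at -29 in Nfkbia, -12 in Tnfaip3, -106 in Nfkbie and -44 in Il6. In windows of 250 bases before to 50 after the start, 9 of 15 promoters of the higher NF-kB genes held it (60%), as did 14 of 43 over the whole list (32.6%). These promoters belonged to 11 of the 14 and 33 of the 41 genes, since each start of a gene counts once, and 3 of the 9 were starts of Nfkb2 and 2 of Tnfaip3. It was in 5.56% of all 32851 promoters and in 7.13% of the 1374 promoters of the genes higher beyond interferon. The list was written from textbook NF-kB targets, so the share describes how it was made. The interferon response element, searched as GAAANNGAAA on both strands, was in 0 of the 15 promoters and in 3.44% of all.

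Among the subunits, Relb, the partner of p100 and p52 in the noncanonical pathway, stood at 26.3 CPM in HT-DNA 2 and 25.8 in cGAMP 2, against 241 in G3-YSD 1 and 222 in HSV 1. That is a log2 difference of 3.13, or 8.73-fold, and the pairs did not overlap. Nfkb1 and Nfkb2, which encode the precursors p105 and p100, were also higher, with log2 differences of 1.79 and 2.07. Rel, the c-Rel subunit, had 19.4 and 18.4 CPM in the reference pair and 49.8 and 47.2 CPM in the strong pair, and Bcl3, a nuclear partner of p50 and p52, 0.921 and 1.43 CPM in the reference pair and 14.3 and 13.2 CPM in the strong pair. For every subunit gene named here both strong libraries lay above both reference libraries, as the 2-fold rule requires. Nfkb1 and Nfkb2 were well expressed in the reference pair too, at 128 and 114 CPM and at 101 and 103 CPM.

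The inhibitors and feedback genes were higher too. Nfkbie, the inhibitor IkB epsilon, stood at 15 CPM in HT-DNA 2 and 12.6 in cGAMP 2, against 96.6 in G3-YSD 1 and 84.7 in HSV 1, a log2 difference of 2.67. Nfkbia, the inhibitor IkB alpha, had 125 and 122 CPM in the reference pair and 337 and 322 CPM in the strong pair, a log2 difference of 1.41. Tnfaip3 encodes A20, an enzyme that edits ubiquitin chains and ends NF-kB signalling, and stood at 30.3 CPM in HT-DNA 2 and 28.9 in cGAMP 2, against 164 in G3-YSD 1 and 142 in HSV 1, or 5.07-fold higher. Cyld, a deubiquitinase with a similar role, differed by 1.32. Among the adaptors and kinases, Traf1, a TNF receptor adaptor, stood at 6.45 CPM in HT-DNA 2 and 6.42 in cGAMP 2, against 55.7 in G3-YSD 1 and 48.9 in HSV 1, a log2 difference of 2.93. Map3k14, the kinase NIK of the noncanonical pathway, Ripk2, Birc2 and Birc3 had log2 differences of 1.88, 1.79, 1.65 and 1.89. Nfkbiz, an inducible nuclear IkB protein, differed by only 0.44.

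**Figure D2:**
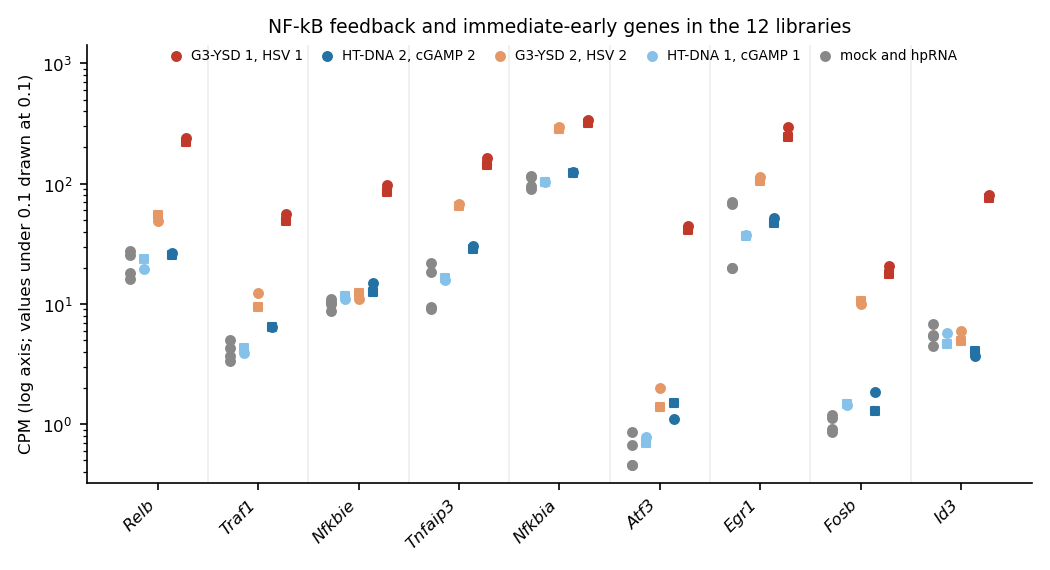
CPM on a log axis of 5 NF-kB and 4 immediate-early or growth-related genes in the 12 libraries, one point per library, coloured by pair as in the key (circle first, square second). G3-YSD 1 and HSV 1 sit above every other library for each of the 9 genes, and for Nfkbia the gap to G3-YSD 2 and HSV 2 is small.

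Secreted signals were mixed. Of 45 chemokines and cytokines 30 passed the filter, with a median log2 difference of 0.47. Of the 30, 9 were higher (30%, against 11.9% of all genes) and 0 lower. Some may have passed through the strong pair alone, such as Ccl12, with 0.246 and 0 CPM in the reference pair, which raises the count. Il33, an alarmin of the interleukin 1 family, stood at 3.87 CPM in HT-DNA 2 and 3.31 in cGAMP 2, against 106 in G3-YSD 1 and 102 in HSV 1, the largest log2 difference in the list at 4.68. Il6, a cytokine of the acute phase, had 15.4 and 16.4 CPM in the reference pair and 113 and 98.7 CPM in the strong pair, and Il15, which sustains lymphocytes, 2.95 and 2.98 CPM in the reference pair and 15.6 and 14.5 CPM in the strong pair. Lif, a cytokine that signals through gp130, differed by 1.55. Il33, Il6 and Lif also followed interferon in mock 2 and hpRNA 2, so 6 of the 9 met neither interferon criterion. Among the 6, Il15 had 0.937 and 0.595 CPM in HT-DNA 1 and cGAMP 1, below its level in the reference pair. Others, such as Ccl12, were under 1 CPM in the reference pair, where the second criterion could hardly be met. A link of the 6 to interferon was not tested. The chemokines Ccl2 and Cxcl1, which draw monocytes and neutrophils, hardly differed: Ccl2 had 968 and 1009 CPM in the reference pair and 1109 and 1122 CPM in the strong pair and Cxcl1 129 and 122 CPM in the reference pair and 152 and 138 CPM in the strong pair. Ifnb1, which encodes interferon beta, was 2.41-fold higher, at 11.2 CPM in HT-DNA 2 and 9.21 in cGAMP 2, against 26.6 in G3-YSD 1 and 23.9 in HSV 1. Of 20 annotated interferon genes 8 passed the filter on low counts, some only through the strong pair, so their count is not used. Ifna16, for example, was at most 0.13 CPM outside the strong pair, and near-identical Ifna copies may share reads.

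Immediate-early genes were the next group that was often higher. Of 49 compared, 22 were higher (44.9%) and 3 lower (6.12%), against 11.9% and 2.37% of all genes. Their median log2 difference was 0.92. Atf3, a stress-induced factor of the ATF family, stood at 1.11 CPM in HT-DNA 2 and 1.49 in cGAMP 2, against 44.4 in G3-YSD 1 and 41 in HSV 1, a log2 difference of 4.59. Fosb, an AP-1 subunit, had 1.84 and 1.3 CPM in the reference pair and 20.8 and 17.8 CPM in the strong pair, and Fos 3.25 and 3.63 CPM in the reference pair and 21 and 18.7 CPM in the strong pair. Egr1 and Egr2, zinc-finger factors that answer growth factors, were 5.42-fold and 5.47-fold higher. Egr1 had 52 CPM in HT-DNA 2, 46.8 in cGAMP 2, 296 in G3-YSD 1 and 246 in HSV 1, and also followed interferon in mock 2 and hpRNA 2. Maff, a small MAF factor, had 35.3 and 38.1 CPM in the reference pair and 246 and 230.2 CPM in the strong pair, and Rnd3, a protein that loosens actin fibres, 28.9 and 28 CPM in the reference pair and 222 and 210.2 CPM in the strong pair. Ccn1, a matricellular protein, differed by 1.79. The 3 lower genes were Ier3, Errfi1 and Ier5l. Ier3, an early response gene that limits death, had 137 and 132 CPM in the reference pair and 31.1 and 27.7 CPM in the strong pair. The kB motif was in 0 of the 33 promoters found for 18 of the 22 higher genes. It was in 5.56% of all promoters, a share at which few of 33 would hold it. The CArG box, CC and GG around 6 bases that are A or T, was in 6 of the 33 (18.2%). It was in 1.63% of all promoters. Each start of a gene counts once, and several of the 6 were starts of Egr2. The difference was not tested.

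Growth factors and receptors differed in both directions. Of 71 annotated, 47 passed the filter. Of these 11 were higher (23.4%) and 3 lower (6.38%), against 11.9% and 2.37% of all genes. The 47 had a median log2 difference of 0.26. Some passed through the strong pair alone, which raises the count higher. Inhbb, for example, had at most 0.0649 CPM in any other library. Id3, an inhibitor of bHLH factors that BMP signals induce, stood at 3.69 CPM in HT-DNA 2 and 4.09 in cGAMP 2, against 80.1 in G3-YSD 1 and 76.1 in HSV 1, or 17.9-fold higher. Angpt1, the ligand of the endothelial receptor Tie2, had 6.33 and 6.81 CPM in the reference pair and 30.6 and 32.2 CPM in the strong pair. Igf1, insulin-like growth factor, had 0.676 and 0.649 CPM in the reference pair and 8.15 and 8.4 CPM in the strong pair. Grem1, a secreted BMP antagonist, was the most reduced named gene: 68.1 CPM in HT-DNA 2 and 67.5 in cGAMP 2, against 9.45 in G3-YSD 1 and 7.17 in HSV 1, a log2 difference of -2.97. Pdgfra, the PDGF receptor alpha and a fibroblast marker, had 70.6 and 71.8 CPM in the reference pair and 26.3 and 24.1 CPM in the strong pair.

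Stress genes were past 2-fold in both directions, and few were higher. Of 61 stress and unfolded protein response genes, 2 were higher (3.28%) and 3 lower (4.92%), against 11.9% and 2.37% of all genes. Their median log2 difference was -0.27. Ppp1r15a, the GADD34 phosphatase subunit that restores translation, stood at 75.8 CPM in HT-DNA 2 and 82 in cGAMP 2, against 252 in G3-YSD 1 and 237 in HSV 1. Ddit3, which encodes CHOP, had 86.7 and 92.6 CPM in the reference pair and 188 and 183 CPM in the strong pair, with a smallest fold between libraries of 1.97, so it was not counted as higher. Herpud1, an ER-associated degradation gene, was lower, with 115 and 127 CPM in the reference pair and 42.5 and 42.9 CPM in the strong pair, as was Gdf15, a stress hormone, with 103 and 97.9 CPM in the reference pair and 23.1 and 25.6 CPM in the strong pair. Of 23 heat shock chaperones, 1 was higher (Hspa4l, 4.35%) and 2 were lower (Hspa1b and Hspb8, 8.70%), with a median of -0.11. Of 29 NRF2 antioxidant genes 2 were higher (6.90%) and 3 lower (10.3%), with a median of -0.38. The 2 were the metallothioneins, which bind metal ions: Mt1 had 574 and 679 CPM in the reference pair and 1973 and 2075 CPM in the strong pair. Hmox1, haem oxygenase, overlapped between the pairs, with 48 and 44.4 CPM in the reference pair and 52 and 46.2 CPM in the strong pair.

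Death and p53 lists are read against 11.9% higher and 2.37% lower among all genes. Of 36 death genes 9 were higher (25%) and 0 lower, with a median log2 difference of -0.003, near that of all genes. The 9 included inhibitors of death, Xiap, Birc2 and Birc3, with log2 differences of 1.47, 1.65 and 1.89. Zbp1, also among the 9, followed interferon in mock 2 and hpRNA 2. Fas, a death receptor, stood at 2.03 CPM in HT-DNA 2 and 1.75 in cGAMP 2, against 10.6 in G3-YSD 1 and 10.6 in HSV 1, and Bbc3, the BH3-only protein PUMA, had 8.66 and 9.15 CPM in the reference pair and 38.6 and 40.2 CPM in the strong pair. Casp4, the sensor of cytosolic lipopolysaccharide, had 41.8 and 45.6 CPM in the reference pair and 152 and 153 CPM in the strong pair. Of 32 p53 targets 6 were higher (18.8%) and 1 lower (3.12%), with a median of 0.02. Cdkn1a, the cell cycle inhibitor p21, had 144 and 146 CPM in the reference pair and 199 and 194 CPM in the strong pair, a log2 difference of 0.43.

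The lists with the most lower genes were metabolic. Of 36 genes of cholesterol and fatty acid synthesis and export, 9 were lower (25%) and 1 higher (2.78%). Among all genes 2.37% were lower and 11.9% higher. The median log2 difference of the 36 was -0.84. Scd2, a stearoyl-CoA desaturase, stood at 928 CPM in HT-DNA 2 and 948 in cGAMP 2, against 167 in G3-YSD 1 and 162 in HSV 1. Srebf1, the transcription factor of lipid synthesis, had 277 and 267 CPM in the reference pair and 90.2 and 87.7 CPM in the strong pair, and Fasn, fatty acid synthase, 1042 and 1012 CPM in the reference pair and 456 and 424 CPM in the strong pair. Abca1, the cholesterol exporter, was also lower, with 44.3 and 48.1 CPM in the reference pair and 11.5 and 11.1 CPM in the strong pair. Of 46 hypoxia and glycolysis genes 9 were lower (19.6%) and 1 higher (2.17%), with a median of -0.56. Egln3, a prolyl hydroxylase that marks HIF for destruction, stood at 308 CPM in HT-DNA 2 and 329 in cGAMP 2, against 56.9 in G3-YSD 1 and 50.7 in HSV 1. Adm, the vasodilator adrenomedullin, had 58.6 and 59.1 CPM in the reference pair and 13.3 and 12.3 CPM in the strong pair, and Vegfa, an angiogenic growth factor, 303 and 322 CPM in the reference pair and 119 and 119 CPM in the strong pair. Slc2a1, the glucose transporter GLUT1, had 221 and 232 CPM in the reference pair and 96.4 and 93.4 CPM in the strong pair. For each of these genes both strong libraries lay below both reference libraries.

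Few cell cycle and housekeeping genes were past 2-fold. Of 71 replication and mitosis genes 0 were higher and 3 lower (4.23%), against 11.9% and 2.37% of all genes. The 3 were Espl1, Cdc25b and Ccnd1, and the list had a median log2 difference of -0.28. Ccnd1, the G1 cyclin D1, had 632 and 592 CPM in the reference pair and 271 and 273 CPM in the strong pair. Of 79 cytosolic ribosomal protein genes 0 were past 2-fold in either direction, with a median of 0.14, and of 12 snoRNA host genes also 0, with a median of 0.04. Of 44 matrix and cytoskeleton genes 1 was higher (Tnc) and 1 lower (Col6a3), with a median of -0.18. Of 9 fibroblast markers, 0 were higher and 1, Pdgfra, was lower, with a median of -0.34.

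Replication-dependent histones were an exception. Their mRNAs normally end in a stem loop and carry no polyA tail, so polyA-selected libraries hold little of them. Of 67 annotated, 31 passed the filter, with a median log2 difference of 1.16. Of the 31, 16 were higher (51.6%, against 11.9% of all genes) and 0 lower. Some may have passed through the strong pair alone, which raises the count and the median. Hist1h1a, for example, had 0.123 and 0.065 CPM in the reference pair and 1.65 and 1.59 CPM in the strong pair. Their summed level was 61 and 61.3 CPM in the reference pair and 313 and 291 CPM in the strong pair. Hist1h1c, linker histone H1.2, took most of it in the strong pair, with 28.1 and 26 CPM in the reference pair and 202 and 185 CPM in the strong pair. The other library of the strong labels lay between, at 94.3 CPM in G3-YSD 2 and 97.8 in HSV 2. Mitochondrial ribosomal RNAs, which carry short tails, were higher too: mt-Rnr1 stood at 1178 CPM in HT-DNA 2 and 1370 in cGAMP 2, against 4903 in G3-YSD 1 and 5272 in HSV 1. All 25 mitochondrial transcripts compared had a median of -0.56, with 2 higher (8%) and 1 lower (4%). Near-identical histone genes may share reads, and the part of RNA quality or of selection for polyA in these values was not tested.

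Most sensors of nucleic acid were not past 2-fold. Of 33 compared, 6 were higher (18.2%, against 11.9% of all genes) and 0 lower, with a median log2 difference of 0.14, and 5 of the 6 also followed interferon in mock 2 and hpRNA 2. Ifih1, the RNA sensor MDA5, had 60.9 and 60.7 CPM in the reference pair and 416 and 401 CPM in the strong pair, and Zbp1, a sensor of Z-form nucleic acid, 20.4 and 21.1 CPM in the reference pair and 166 and 166 CPM in the strong pair. Of 33 JAK-STAT and SOCS genes 3 were higher (9.09%) and 1 lower (3.03%), near the 11.9% and 2.37% of all genes. Their median was -0.03. Socs3, a feedback inhibitor of cytokine receptors, was lower in the strong pair at 65 and 61.4 CPM, against 117 and 111.

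The genes furthest above the reference pair beyond interferon were low in every other library, at most 5.31 CPM. Prdm9, the meiotic histone methyltransferase that places recombination hotspots (chromosome 17, 15543079 to 15564354, mm10), stood at 4.24 CPM in HT-DNA 2 and 4.41 in cGAMP 2, against 344 in G3-YSD 1 and 363 in HSV 1. In the other 8 libraries it lay between 2.91 and 5.31 CPM. Lypd6, a membrane-anchored modulator of Wnt signalling, had 0.184 and 0.259 CPM in the reference pair and 71.9 and 63.7 CPM in the strong pair, from 3 and 4 counts against 1217 and 1039. Fras1, an extracellular matrix protein of basement membranes, had 0.184 and 0.0649 CPM in the reference pair and 56.5 and 48.4 CPM in the strong pair, and Glis3, a transcription factor of endocrine pancreas and thyroid, 0.43 and 0.843 CPM in the reference pair and 71.4 and 72.6 CPM in the strong pair. Tmprss11d, an airway serine protease, had 0.123 and 0 CPM in the reference pair and 38.2 and 32 CPM in the strong pair, and Nhlh1, a neuronal bHLH factor, 0.246 and 0.13 CPM in the reference pair and 30.5 and 30.1 CPM in the strong pair. Myo18b, a muscle myosin, had 0.369 and 0.195 CPM in the reference pair and 29 and 29.6 CPM in the strong pair. Frmd3, Zswim5, Mroh8, Cep85l and Fam184a complete the 12 genes furthest above. Gm18564 overlaps Prdm9 and Rpn2 overlaps Mroh8, each on the other strand and expressed in the strong pair. Reads of Prdm9 and Gm18564, and of Mroh8 and Rpn2, cannot be told apart if counting ignored strand.

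**Figure D3:**
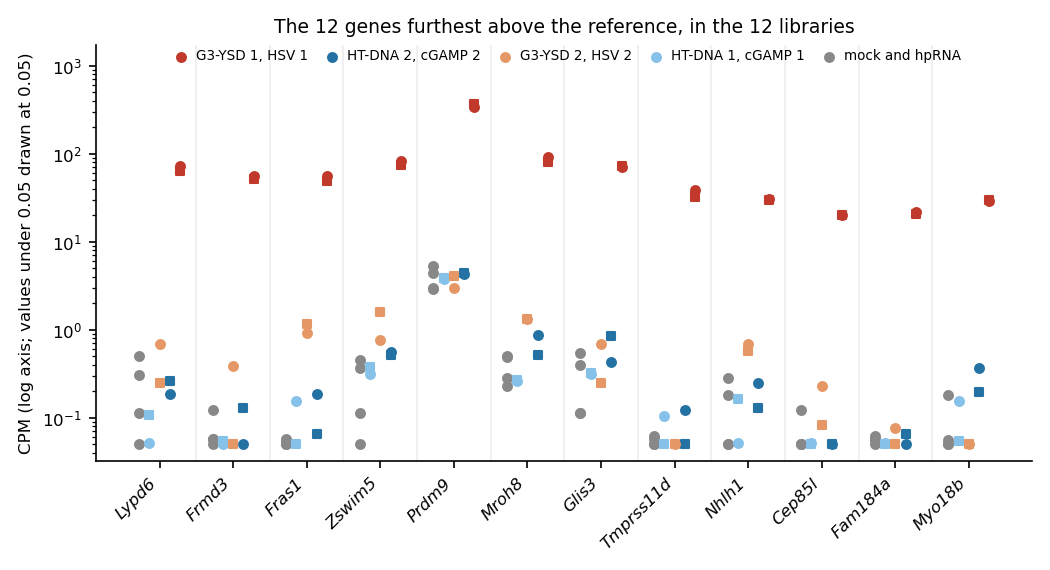
CPM on a log axis in the 12 libraries of the 12 genes with the largest smallest fold between the pairs, one point per library, coloured by pair as in the key. G3-YSD 1 and HSV 1 lie between 19.9 and 363 CPM, and no other library exceeds 5.31 CPM for any of the 12.

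Silent genes were counted at large. Of the annotated genes, 33266 had at most 2 counts in each of the 8 libraries outside the G3-YSD and HSV labels. At an equal depth of 12650790 counts, 873 of them reached 5 counts in G3-YSD 1 (2.62%, exact 95% interval 2.46 to 2.80%) and 827 in HSV 1 (2.49%, 2.32 to 2.66%). In G3-YSD 2 and HSV 2 it was 536 (1.61%, 1.48 to 1.75%) and 587 (1.76%, 1.63 to 1.91%). The intervals cover counting error only. Both strong libraries shared 585 such genes and G3-YSD 2 and HSV 2 shared 369. Only 30 were detected in all 4, which is 5.13% of the 585 and 8.13% of the 369. Protein-coding genes made up 329 of the 585, which is 4.28% of the silent protein-coding genes, against 2.20% of silent lincRNAs and 1.90% of silent antisense genes.

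Silent genes were also sorted by place, leaving out those that overlap or lie between expressed genes. Over 50 kb from any expressed gene, 2.18% were detected in G3-YSD 1 and 2.06% in HSV 1, against 0.615% in each of G3-YSD 2 and HSV 2. Within 10 kb before the 5' end of an expressed gene of the same strand, 5.17% and 6.32% were detected in G3-YSD 1 and HSV 1. There G3-YSD 2 and HSV 2 had 2.30% and 2.11%. Within 10 kb past the 3' end of an expressed gene of the same strand the order was the reverse, with 4.19% in each strong library against 12.8% in G3-YSD 2 and 13.7% in HSV 2. Of 358 genes in that place, 15, 15, 46 and 49 were detected in G3-YSD 1, HSV 1, G3-YSD 2 and HSV 2, which is a description of these libraries with no test. With at least 10 counts required the shares were 1.12% and 0.838% against 4.19% and 5.59%. Among genes at 0 counts in the 8 libraries they were 1.26% and 0.629% against 3.77% each, from at most 6 of 159 genes. Reads that run past the end of an expressed gene are counted in such places. Silent genes took 0.173% and 0.163% of all counts in G3-YSD 1 and HSV 1, against 0.0930% and 0.10% in G3-YSD 2 and HSV 2. In the 8 libraries that define them they took at most 0.0171%, low by definition.

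**Figure D4:**
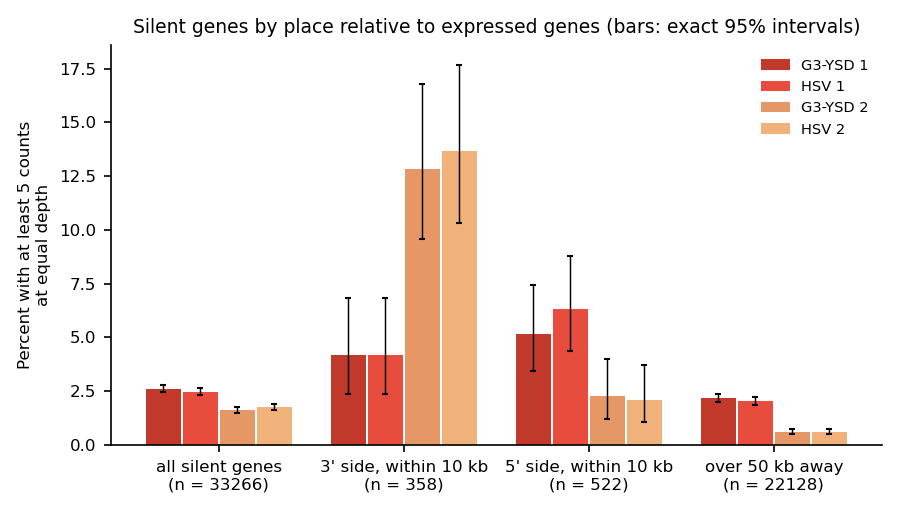
Percent of silent genes with at least 5 counts at equal depth in G3-YSD 1, HSV 1, G3-YSD 2 and HSV 2, for all silent genes and by place relative to expressed genes, with exact 95% intervals. Far from expressed genes G3-YSD 1 and HSV 1 (2.18 and 2.06%) lie above G3-YSD 2 and HSV 2 (0.615% each), and on the 3' side they lie below them (4.19% against 12.8 and 13.7%).

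The same 4 labels were compared in the 4 libraries that the rule did not use: G3-YSD 2 and HSV 2 against HT-DNA 1 and cGAMP 1. Here the difference in interferon-stimulated genes ran the other way. The comparison thus asks which differences came with the labels without the high level of those genes. Interferon itself did not run the other way. Ifnb1 had 0.677 and 0.379 CPM in HT-DNA 1 and cGAMP 1 and 4.31 and 4.13 CPM in G3-YSD 2 and HSV 2. Its log2 fold change was 2.96 (edgeR adjusted p = 4.1e-08). The fit treated the 2 labels on each side as replicates, with 2 residual degrees of freedom. Their spread was small, with a common coefficient of variation of 0.031, which makes adjusted p-values very low. edgeR's quasi-likelihood test called 5656 of 14936 genes higher (37.9%) and 5617 lower (37.6%) at an adjusted p under 0.05. Because so many genes were called, a minimum of 2-fold was added after seeing the data, which left 2041 higher (13.7%) and 2122 lower (14.2%). Upper quartile scaling moved the split of the calls to 6928 higher and 4547 lower. Of the 144 interferon-stimulated genes 130 were tested, 3 were called at least 2-fold higher and 78 at least 2-fold lower. Isg15, a ubiquitin-like antiviral protein, had 76.4 and 92.8 CPM in HT-DNA 1 and cGAMP 1 and 7.07 and 6.69 CPM in G3-YSD 2 and HSV 2.

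The composition of the RNA also differed between these libraries. Mitochondrial genes took 3.64% and 3.53% of counts in G3-YSD 2 and HSV 2, against 2.21% and 2.13% in HT-DNA 1 and cGAMP 1, and the 10 highest genes took 5.92% and 5.80% against 4.11% and 4.09%. Of 25 mitochondrial transcripts edgeR called 22 higher and 0 lower, and of 79 ribosomal protein genes 72 higher and 1 lower, against 37.9% and 37.6% of all genes. The part of these differences in the results that follow was not tested.

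Some genes beyond interferon were also called in these libraries. Of the 1848 higher genes 983 could be tested, and 384 of them (39.1%) were called at least 2-fold higher, against 13.7% of all genes, while 73 (7.43%) were called at least 2-fold lower, against 14.2%. Genes pass the low-count filter of this fit only with counts in these libraries, so the 983 are not the whole set. Of the 1848 genes, 1152 had a mean under 1 CPM in the reference pair. Those also low in HT-DNA 1 and cGAMP 1 could pass only through G3-YSD 2 and HSV 2. Tgfb2, for example, had 0.26 and 0.27 CPM in HT-DNA 1 and cGAMP 1 and 8.61 and 10.1 CPM in G3-YSD 2 and HSV 2. The filter thus favours higher over lower calls among the 983. Its part in the distance of both shares from those of all genes was not tested. Of the 399 lower genes 165 (41.4%) were called at least 2-fold lower and 6 (1.5%) at least 2-fold higher.

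Among NF-kB genes, 13 of the 14 could be tested, and 5 were called at least 2-fold higher and 0 at least 2-fold lower, against 13.7% and 14.2% of all genes. The share called higher was near the 39.1% of the tested higher genes beyond interferon, a share that the low-count filter can raise. The 5 were Nfkbia, Tnfaip3, Traf1, Relb and Map3k14. Nfkbia had 104 and 103 CPM in HT-DNA 1 and cGAMP 1 and 298 and 286 CPM in G3-YSD 2 and HSV 2, with a log2 fold change of 1.49 (SE 0.0371, edgeR adjusted p = 1.7e-17). Tnfaip3 had 15.8 and 16.3 CPM in HT-DNA 1 and cGAMP 1 and 67.6 and 64.7 CPM in G3-YSD 2 and HSV 2, with a log2 fold change of 2.04 (SE 0.0684, edgeR adjusted p = 1.3e-15). Relb showed a log2 fold change of 1.26 (SE 0.0835, edgeR adjusted p = 4.7e-11). Nfkbie did not pass, at 11 and 11.6 CPM in HT-DNA 1 and cGAMP 1 and 11 and 12.4 CPM in G3-YSD 2 and HSV 2, with a log2 fold change of 0.04 (SE 0.123, edgeR adjusted p = 0.795), and Nfkb2 did not either, with a log2 fold change of 0.097 and an edgeR adjusted p of 0.0793. Nfkbiz, little apart in the strong pair, was higher here, with a log2 fold change of 1.74 (SE 0.038, edgeR adjusted p = 2.4e-18).

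Of the 22 higher immediate-early genes 12 were called at least 2-fold higher here and 0 at least 2-fold lower. The shares were 39.1% and 7.43% of the tested higher genes beyond interferon, and 13.7% and 14.2% of all genes. The difference from these shares was not tested. Ccn1 had 19.9 and 19 CPM in HT-DNA 1 and cGAMP 1 and 211 and 209 CPM in G3-YSD 2 and HSV 2, above its level in the strong pair, with a log2 fold change of 3.42 (SE 0.0471, edgeR adjusted p = 2.6e-21). Fosb showed a log2 fold change of 2.81 (SE 0.188, edgeR adjusted p = 5.3e-11). Maff was lower here, with a log2 fold change of -0.36 (SE 0.073, edgeR adjusted p = 1.8e-04). Igf1 also had more counts here than in the strong pair, at 0.885 and 0.649 CPM in HT-DNA 1 and cGAMP 1 and 20.1 and 20.7 CPM in G3-YSD 2 and HSV 2, with a log2 fold change of 4.71 (SE 0.187, edgeR adjusted p = 1.7e-14). Id3 did not pass, with a log2 fold change of 0.06 (SE 0.178, edgeR adjusted p = 0.772).

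Of the 9 lower hypoxia genes 6 were called at least 2-fold lower and 0 at least 2-fold higher, against 41.4% and 1.5% of the 399 lower genes. Eno2, a glycolytic enolase, had 122 and 118 CPM in HT-DNA 1 and cGAMP 1 and 13.5 and 12.1 CPM in G3-YSD 2 and HSV 2, with a log2 fold change of -3.24 (SE 0.0655, edgeR adjusted p = 9.4e-19), and Egln3 showed a log2 fold change of -1.95 (SE 0.0364, edgeR adjusted p = 3.4e-19). Of the 9 lower lipid genes only Dhcr7, the last enzyme of cholesterol synthesis, was called at least 2-fold lower and 1, Abca1, at least 2-fold higher. Scd2 was lower by just under 2-fold, with a log2 fold change of -0.97 (SE 0.0294, edgeR adjusted p = 3.1e-16), and Srebf1 did not pass, with a log2 fold change of 0.07 (SE 0.0356, edgeR adjusted p = 0.0816). Of the 12 genes furthest above, 4 could be tested, and Fras1, Zswim5 and Mroh8 were called higher here, though at most 1.57 CPM in any of these libraries. Prdm9 did not pass, at 3.75 and 3.89 CPM in HT-DNA 1 and cGAMP 1 and 2.999 and 4.05 CPM in G3-YSD 2 and HSV 2, with a log2 fold change of -0.13 (SE 0.208, edgeR adjusted p = 0.57). Of the 16 higher histones 11 could be tested and 6 were called at least 2-fold higher, against 39.1% of the tested higher genes beyond interferon.

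**Figure D5:**
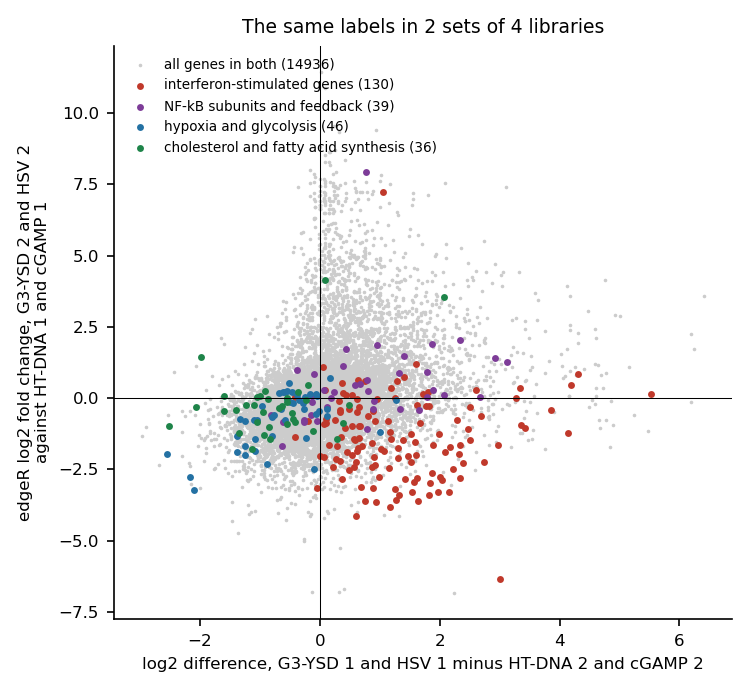
Each point is 1 of 14936 genes, with its log2 difference between the strong and reference pairs on the x axis and its edgeR log2 fold change for G3-YSD 2 and HSV 2 against HT-DNA 1 and cGAMP 1 on the y axis. The 2 axes share no library. Interferon-stimulated genes (red) lie right of and mostly below zero, NF-kB genes (purple) mostly to the right on both sides of zero on the y axis, and hypoxia genes (blue) mostly in the lower left.

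Grouped by label over all libraries, the mean of G3-YSD and HSV against the mean of HT-DNA and cGAMP, edgeR called 1918 of 16840 genes higher (11.4%) and 1831 lower (10.9%) in the fit of 12 libraries. Upper quartile scaling gave 2683 higher and 1255 lower. Of the 2006 higher genes 695 were called higher and of the 399 lower genes 262 were called lower. This comparison holds the 4 libraries of the rule and is not independent of it. Leaving out any of HT-DNA 1, HT-DNA 2, cGAMP 1 or cGAMP 2 reduced its calls from 3749 to between 1336 and 1544.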

How the data were processed

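Gene expression was measured by sequencing of polyA-selected RNA in 12 libraries, per the labels. The authors deposited 1 raw count per Ensembl gene and library. The submitters' processing notes name the aligner HISAT2, the counter HTSeq and the build mm10, with no version. Strand setting and annotation release: not given in the sources used here. Overlapping and near-identical genes may therefore share counts. Of 54532 genes per file, 54495 matched GENCODE M21, which gave symbols and mm10 positions. Promoters came from RefSeq (GRCm38.p6).

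Counts were filtered with filterByExpr of edgeR 4.0.16 in R 4.3.3 and scaled by TMM. CPM plus 0.5 gave the log2 differences. The tests were edgeR's quasi-likelihood test with Benjamini-Hochberg adjustment, called under 0.05, and DESeq2 1.42.0 as an alternative. The edgeR test reports no SE. Each SE printed is the absolute log2 fold change divided by the square root of the test's F statistic. The procedure was also run on simulated data with a set spread between libraries. That spread differed from the common coefficients of variation fitted here, 0.397 for 12 libraries and 0.031 for the 4 unused ones. The run therefore does not test the calls in these data. The labels share the numbers 1 and 2, but the deviations of same-numbered libraries correlated between -0.36 and 0.94, so the numbers were not used as pairs.

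The 4 libraries, the gene lists and the rules were chosen with earlier results of these data known. Named genes were the 12 in each direction with the largest smallest fold between the pairs, outside interferon genes and predicted genes and with a mean of at least 5 CPM on the higher side, up to 5 members of each list and 24 genes taken whatever their result. Cyld, Rel, Nfkb1, Nfkb2, Map3k14, Ripk2, Birc3, Xiap, Fos, Fasn, Slc2a1, Dhcr7, Errfi1, Ier5l and Tnc were named after their values were seen. Other settings are given in the closing section.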

Additional observations from a re-analysis of the deposited data

Results flagged for a closer look

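Several named genes differed at least 2-fold one way between the strong and reference pairs and were called at least 2-fold the other way by edgeR in G3-YSD 2 and HSV 2 against HT-DNA 1 and cGAMP 1. The difference between the 2 comparisons was not tested itself. Outside the lists of interferon-stimulated genes and sensors these were Abca1, Zfp945 and Il33, of which Il33 also followed interferon in mock 2 and hpRNA 2. Abca1, the cholesterol exporter, was lower in the strong pair by a log2 difference of -1.98, and had 41.9 and 41.2 CPM in HT-DNA 1 and cGAMP 1 and 117 and 109.9 CPM in G3-YSD 2 and HSV 2, with a log2 fold change of 1.44 (SE 0.0498, edgeR adjusted p = 2.0e-15). Zfp945, a zinc-finger gene, stood at 18.5 CPM in HT-DNA 2 and 18.3 in cGAMP 2, against 213 in G3-YSD 1 and 204 in HSV 1, and had 20.5 and 20.8 CPM in HT-DNA 1 and cGAMP 1 and 7.15 and 7.93 CPM in G3-YSD 2 and HSV 2, with a log2 fold change of -1.46 (SE 0.118, edgeR adjusted p = 8.4e-10). Il33 showed a log2 fold change of -1.06 (SE 0.331, edgeR adjusted p = 0.00711), against a log2 difference of 4.68 in the strong pair. Of the interferon-stimulated genes and sensors, the log2 fold change in G3-YSD 2 and HSV 2 was -1.66 for Zbp1, -2.23 for Ifih1, -1.63 for Dhx58, -2.03 for Ddx58, -1.76 for Tlr3, -3.62 for Isg15 and -1.46 for Ifit1, all of which were higher in the strong pair.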

How the results depend on the processing

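With a pseudocount of 2 CPM, 1088 genes were at least 2-fold higher in the strong pair and 938 of them lay beyond interferon, against 2006 and 1848. Under upper quartile scaling, library totals, no filter, a pseudocount of 0.1 and equal depth, and without each library, the counts higher stayed between 1999 and 2585. The counts lower stayed between 310 and 538. These ranges include HT-DNA 1 and cGAMP 1 as reference, chosen after seeing the data, which gave 2309 higher and 538 lower. Of the 2006 genes, 1833 were higher against both references. Genes that followed interferon numbered 226 at 2-fold and 399 at 1.5-fold. A reference mean of at least 1 CPM left 696 higher genes beyond interferon.

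The label comparison called 1584 genes in a fit of 8 libraries, 1336 to 4570 without 1 library, and 4182 with the replicate block, against 3749. G3-YSD 1 and HSV 1 ran opposite to the other libraries numbered 1, so the block pairs libraries that do not deviate together. The comparison in unused libraries called 4163 genes with the 2-fold minimum, 10546 to 10885 without 1 library, and 9426 by DESeq2, against 11273.

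Upper quartile scaling moved the median log2 difference of a list by up to 0.10, to 1.35 for interferon-stimulated genes, 0.57 for chemokines, 1.01 for immediate-early genes, -0.17 for stress, -0.010 for heat shock chaperones, 0.12 for p53 targets, -0.28 for NRF2 genes, -0.47 for hypoxia and glycolysis, -0.74 for lipid synthesis, -0.18 for replication and mitosis, 0.35 for growth factors, -0.087 for matrix, 0.23 for nucleic acid sensing, 0.065 for JAK-STAT genes, -0.24 for fibroblast markers, 0.24 for ribosomal proteins, 0.18 for zinc-finger genes, 0.14 for snoRNA host genes, 0.12 for all genes. Without 1 library the medians ranged from 0.68 to 0.75 for NF-kB subunits and feedback, 0.44 to 0.55 for chemokines, 0.81 to 0.93 for immediate-early genes, -0.30 to -0.28 for stress, -0.0058 to 0.065 for p53 targets, -0.58 to -0.56 for hypoxia and glycolysis, -0.82 to -0.79 for lipid synthesis, -0.30 to -0.29 for replication and mitosis, 0.11 to 0.28 for growth factors, -0.10 to 0.080 for death genes, -0.0085 to 0.062 for JAK-STAT genes, 0.080 to 0.12 for zinc-finger genes, 0.030 to 0.044 for all genes. No named gene that was 2-fold apart changed direction under any of these. The 2-fold rule fixes this outcome when 1 library is left out, and the shifts from scaling were small beside 2-fold. It is therefore no test of these genes.

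The share of silent genes detected depended on the limits: G3-YSD 1 gave 5.04% at 3 counts, 1.13% at 10 and 0.804% for genes at 0 counts; HSV 1 gave 4.84% at 3 counts, 1.06% at 10 and 0.702% for genes at 0 counts; G3-YSD 2 gave 3.32% at 3 counts, 0.529% at 10 and 0.386% for genes at 0 counts; HSV 2 gave 3.6% at 3 counts, 0.637% at 10 and 0.418% for genes at 0 counts. G3-YSD 1 and HSV 1 were above G3-YSD 2 and HSV 2 under each.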

Other observations

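Zinc-finger protein genes with a number were mixed in the strong pair: of 332 compared, 30 were higher and 5 lower, against 11.9% and 2.37% of all genes, with a median log2 difference of 0.09. Zfp957 was listed near 0 elsewhere, with 0.307 and 0 CPM in the reference pair and 15.1 and 12.3 CPM in the strong pair. Zfp672 had 17.4 and 15 CPM in the reference pair and 126 and 108 CPM in the strong pair and Zfp651 72.7 and 67.7 CPM in the reference pair and 20.3 and 21.3 CPM in the strong pair. In G3-YSD 2 and HSV 2, edgeR called 17 of the 30 (29 tested) at least 2-fold higher and 2 at least 2-fold lower. Of all tested higher genes beyond interferon the shares were 39.1% and 7.43%. Neat1 and Malat1, nuclear long noncoding RNAs, differed little in the strong pair, with log2 differences of 0.27 and 0.44. Neat1 was lower in G3-YSD 2 and HSV 2, with a log2 fold change of -2.0 (SE 0.0421, edgeR adjusted p = 1.5e-18).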
